A study of Rattus norvegicus with 14 samples.

Results

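Matricellular proteins are secreted into the extracellular matrix, where they signal to cells rather than carry load, and lysyl oxidases are the secreted enzymes that cross-link collagen and elastin. The 10 genes described here are the matricellular genes Postn, Tnc, Spp1, Sparc, Thbs2, Ccn1 and Ccn2 and the lysyl oxidase genes Lox, Loxl1 and Loxl2. They were taken by symbol from the annotation of a rat expression array, as 10 of the 13184 genes and 13 of the 20223 probe sets measured. Sparc, Lox and Loxl2 each had 2 probe sets, and the brighter one stands for the gene unless the other is named.

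The cells were neonatal rat ventricular myocytes, isolated from hearts of Sprague-Dawley pups that were 2 days old and depleted of non-myocytes by differential plating, so they are cultured neonatal cells of 1 strain from which other heart cells were reduced but not sorted out. Cells received JQ1, an inhibitor that keeps the bromodomains of BET proteins off acetylated histones, or the vehicle DMSO, in either case combined with phenylephrine (PE, 100 µM), an alpha-1 adrenergic agonist that drives hypertrophic growth of cardiac myocytes, except in 1 group without PE. The 5 groups were JQ1 with PE for 6 h (3 arrays), DMSO with PE for 6 h (2 arrays), JQ1 with PE for 48 h (3 arrays), DMSO with PE for 48 h (3 arrays) and DMSO alone for 90 min (3 arrays), called unstimulated below. All groups were kept in serum-free medium and all received either JQ1 or DMSO. By the treatment protocol the compound was given 6 h ahead of PE, while the design text names PE as the earlier step, and the concentration of JQ1 is not given in the sources used here. No group with JQ1 and without PE was analysed here. The unstimulated arrays also differ from the PE arrays in culture time, so PE and time cannot be told apart. No label says whether replicate arrays stem from independent cultures, and p-values then measure the spread between arrays, which may be technical.

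In the heart, periostin (Postn), tenascin-C (Tnc), osteopontin (Spp1), SPARC (Sparc) and thrombospondin 2 (Thbs2) are known as products of activated fibroblasts and injured tissue, where they regulate adhesion and collagen assembly through integrins and other receptors. Ccn1 and Ccn2 encode CYR61 and CTGF, which are rapidly induced targets of YAP and TEAD factors in many cell types. Lox, Loxl1 and Loxl2 encode copper-dependent oxidases that convert lysine side chains of collagen and elastin into aldehydes, from which cross-links form.

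The deposited values were log2 array signals. Over all probe sets, array medians lay between 7.28 and 7.43, and arrays of 1 group correlated at r of 0.9976 to 0.9986. The 30th percentile of the genes' means over all arrays, log2 6.23, is used here as the limit below which a gene is called dim. None of the 10 cardiac muscle markers measured was dim in any group, and their summed level lay between log2 16.75 and 16.92 on every array. Differences are log2 changes from limma, given ± SE, with Benjamini-Hochberg adjustment over the 13184 genes and a threshold of 0.05. Less bright probe sets were tested in a separate fit, with adjustment over 18510 probe sets. The number of arrays limits the precision, and the median SE of a gene was 0.060 for 3 arrays against 3 and 0.068 for 3 against 2.

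The plot of levels by array shows the 10 genes in all groups.

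**Figure D1:**
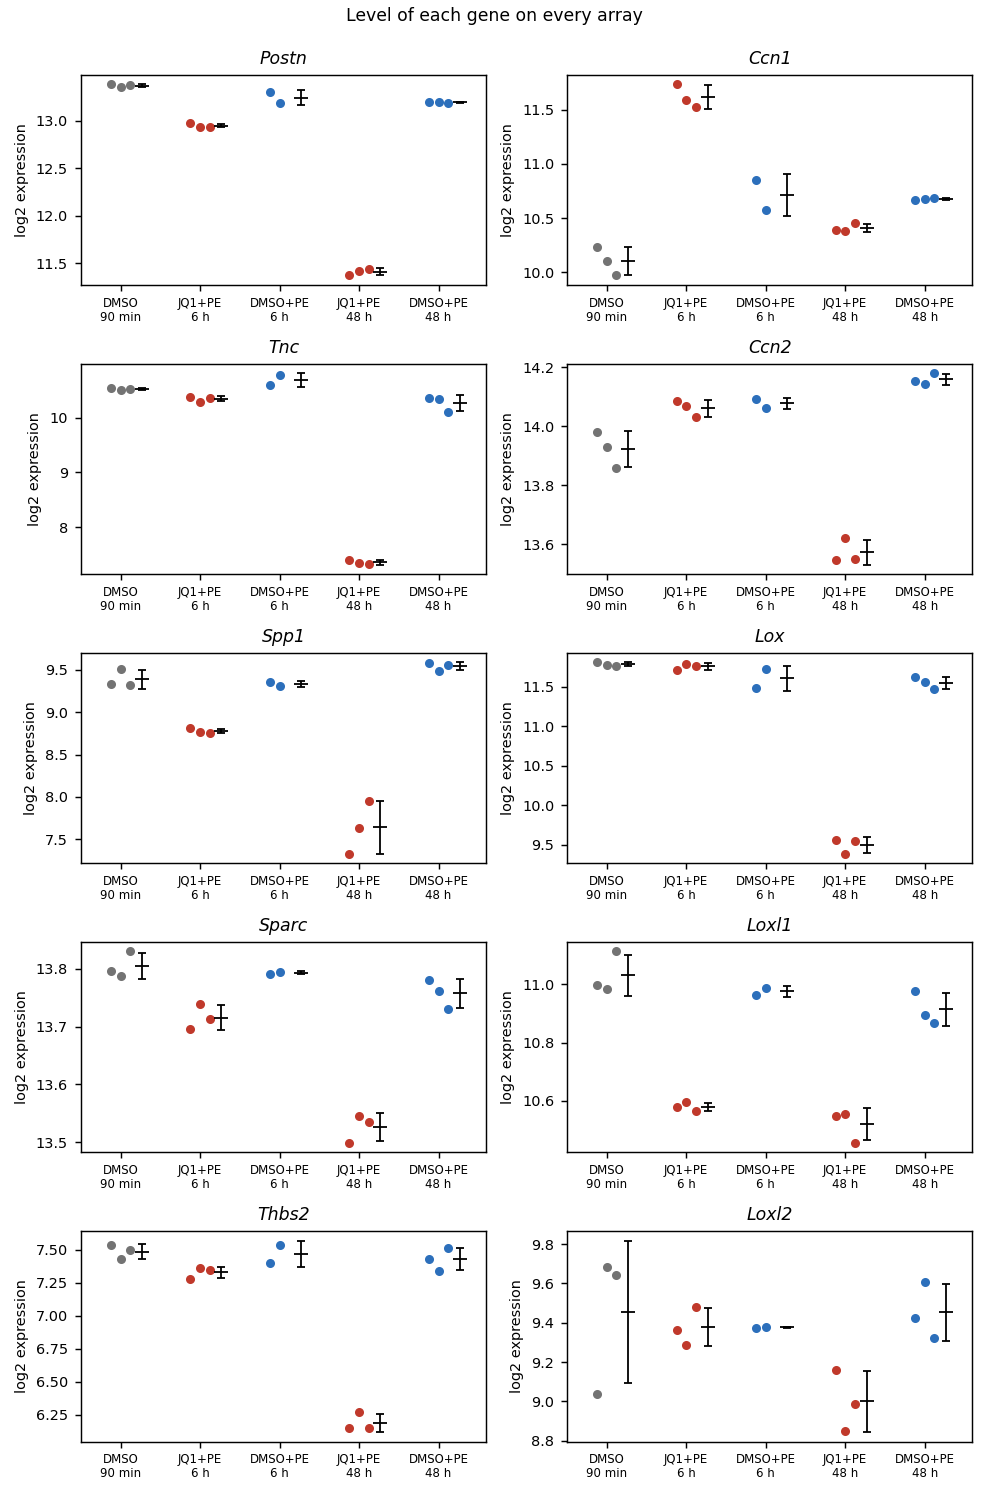
Log2 signal of the 10 genes (vertical axis, log2 units) on each of the 14 arrays, by group (horizontal axis); points are arrays and short lines are group means. The 3 arrays of JQ1 with PE for 48 h hold the lowest levels of Postn, Tnc, Spp1, Thbs2 and Lox, whereas Ccn1 is highest in JQ1 with PE for 6 h.

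After 48 h of PE all 10 genes were lower in JQ1-treated cells than in vehicle-treated cells, and 5 of them, Tnc, Lox, Spp1, Postn and Thbs2, were at least 2-fold lower. Across all genes, 59.6% passed the test in this comparison, 29.6% as lower and 6.04% as at least 2-fold lower. The median change of the 10 genes was -0.92, against 0.017 over all genes. In each of the 10 genes the 3 JQ1 arrays lay below the 3 DMSO arrays, a separation in 1 direction or the other that 64.8% of all genes showed. Array medians over the 13184 genes were 0.112 lower in JQ1 than in DMSO arrays. With every array centred on its median each change was 0.112 less negative, which left 8 of 10 calls and ended those of Ccn1 (-0.15, limma adjusted p = 0.127) and Loxl2 (-0.34, limma adjusted p = 0.0575).

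Fibroblast markers fell beside the 10 genes. The 10 genes and the lists used here were chosen with earlier results of these data known, so their counts are descriptions. At 48 h 9 of 10 fibroblast markers were lower with JQ1, with a median of -1.39, and their summed level was log2 12.37 to 12.38 on the JQ1 arrays, against 13.37 to 13.43 on the DMSO arrays. Pdgfra changed by -1.71, Dcn by -1.45 and Tcf21 by -0.65, genes singled out after their values were seen because they define fibroblasts. The cardiac markers summed to 16.87 to 16.92 on the JQ1 arrays, against 16.91 to 16.92 on the DMSO arrays. Within that sum 5 of the 10 cardiac markers rose, 3 fell and 2 did not pass, where 3957 of 13184 genes were higher and 3901 lower. Changes were opposite in Tnni3 (-1.55, or 2.94-fold lower) and Mybpc3 (0.65, or 1.57-fold higher), a pair also singled out after their values were seen. At 6 h 7 of the 10 fibroblast markers were already lower and 1 higher (median -0.50), where 28.8% of all genes were lower and 25.5% higher. Their sums were 13.10 to 13.12 with JQ1, against 13.51 to 13.54 with DMSO. Fibroblast markers were dim for 4 of 10 genes in JQ1 cells at 48 h and for 1 of 10 in DMSO cells at 48 h. In these bulk samples fewer cells of a type and less RNA per cell cannot be told apart, and the part of the fibroblast markers in the changes of the 10 genes was not tested.

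Tnc, an adhesion-modulating glycoprotein of developing and injured tissue, changed most. Its log2 levels were 7.41, 7.34 and 7.32 on the JQ1 arrays at 48 h, against 10.36, 10.34 and 10.11 on the DMSO arrays at 48 h. The groups lay far apart and the spread within each was small. The change was -2.91 ± 0.066, a 7.52-fold lower level (limma adjusted p = 2.8e-12), and it ranked 40th among the falls of all genes.

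Postn, which binds integrins and aids collagen assembly, followed the same course. It measured 11.37, 11.42 and 11.44 on the JQ1 arrays at 48 h, against 13.19, 13.20 and 13.19 on the DMSO arrays. The arrays of each group were almost level with each other, and the difference of -1.79 ± 0.035 was a 3.45-fold lower level (limma adjusted p = 1.2e-12). Spp1, an integrin and CD44 ligand, measured 7.33, 7.64 and 7.95 with JQ1, against 9.58, 9.49 and 9.56 with DMSO. The JQ1 arrays were widely spread (SD 0.31) yet all well below the DMSO arrays, with a change of -1.90 ± 0.11, or 3.73-fold lower (limma adjusted p = 1.5e-08). Thbs2, which binds matrix metalloproteases and restrains angiogenesis, measured 6.15, 6.27 and 6.15 with JQ1, against 7.43, 7.34 and 7.52 with DMSO. Its change was -1.24 ± 0.057, or 2.37-fold lower (limma adjusted p = 1.1e-09), and its JQ1 mean of 6.19 was the only group mean of the 10 genes under the dim limit.

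Sparc, a collagen-binding protein, passed the test with a small change. It averaged 13.53 ± 0.024 in JQ1 cells at 48 h and 13.76 ± 0.026 in DMSO cells (SD, n = 3 each), a change of -0.23 ± 0.031 or 1.17-fold (limma adjusted p = 2.8e-05). Its second probe set, less bright, changed by -0.31.

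The CCN genes, whose products bind integrins and heparan sulfate, had smaller changes at 48 h. Ccn2 measured 13.55, 13.62 and 13.55 on the JQ1 arrays, against 14.16, 14.14 and 14.18 on the DMSO arrays, and Ccn1 measured 10.39, 10.38 and 10.45 with JQ1, against 10.67, 10.68 and 10.68 with DMSO. The groups did not overlap in either gene. Ccn2 changed by -0.59 ± 0.039 (1.50-fold lower, limma adjusted p = 3.1e-08) and Ccn1 by -0.27 ± 0.079 (1.20-fold lower, limma adjusted p = 0.0108).

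Among the cross-linking enzymes Lox, the founding member of the family, had the largest change. It measured 9.56, 9.39 and 9.55 on the JQ1 arrays at 48 h, against 11.62, 11.56 and 11.47 on the DMSO arrays. No array of one group came near the other, and the change was -2.05 ± 0.065, a 4.14-fold lower level (limma adjusted p = 3.9e-11). Its less bright probe set gave -2.19, or 4.57-fold lower (limma adjusted p = 5.7e-10). Loxl1, an enzyme linked to elastic fibres, averaged 10.52 ± 0.055 with JQ1 and 10.91 ± 0.057 with DMSO (SD, n = 3 each), and changed by -0.39 ± 0.045 or 1.31-fold (limma adjusted p = 5.8e-06). Loxl2, which also acts on basement membrane collagen, averaged 9.00 ± 0.16 with JQ1 and 9.45 ± 0.14 with DMSO (SD, n = 3 each). Its change of -0.45 ± 0.15 (1.37-fold lower, limma adjusted p = 0.0171) did not pass without DMSO replicate 2 at 48 h (-0.38, limma adjusted p = 0.0693) or without JQ1 replicate 2 at 48 h (-0.38, limma adjusted p = 0.067). The other Loxl2 probe set changed by -0.43 (limma adjusted p = 3.8e-05).

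At 6 h of PE the genes separated into different responses to JQ1. Ccn1 rose 1.87-fold, Postn, Tnc, Spp1 and Loxl1 fell by 1.23-fold to 1.47-fold, and Sparc, Thbs2, Ccn2, Lox and Loxl2 did not pass the test. None of the 10 was at least 2-fold lower, as 3.72% of all genes were, and in 7 of 10 the arrays of the groups did not overlap, as in 66.0% of all genes. Across all genes 54.3% passed, 25.5% as higher and 28.8% as lower, and the median change of the 10 genes was -0.11 against 0.000 over all genes. Array medians over the 13184 genes were 0.099 lower in the JQ1 arrays at 6 h.

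Ccn1 had its highest levels of the experiment here, 11.73, 11.59 and 11.52 on the JQ1 arrays at 6 h, against 10.85 and 10.57 on the DMSO arrays. Every JQ1 array was above both DMSO arrays. The change was 0.90 ± 0.088 (limma adjusted p = 2.2e-06), and it lay between 0.76 and 1.04 under every alternative tried. Ccn2 measured 14.08, 14.07 and 14.03 with JQ1, against 14.09 and 14.06 with DMSO. The arrays of the 2 groups were interleaved, with a difference of -0.02 (95% confidence interval -0.11 to 0.08, limma adjusted p = 0.783). This interval does not reach the size of the change in Ccn1. Ccn2 lay near the top of the signal range, as the highest signals on the arrays at 6 h were 14.41 to 14.53. Whether this limited its change was not tested.

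The sequences before these genes' annotated starts are shown because the CCN pair, both known YAP and TEAD targets, gave unlike values at 6 h and because both windows lie outside the annotated genes. They are the 250 bases upstream of each start, from RefSeq on rat build GRCr8, written 5′ to 3′ along the gene's strand; Ccn1 lies at chr2:237225690-237225939 and Ccn2 at chr1:22624615-22624864, both on the minus strand. Capitals mark GGAATG, the core recognised by TEAD factors, or its reverse complement CATTCC, and the TATA box letters TATAAA.
Ccn1: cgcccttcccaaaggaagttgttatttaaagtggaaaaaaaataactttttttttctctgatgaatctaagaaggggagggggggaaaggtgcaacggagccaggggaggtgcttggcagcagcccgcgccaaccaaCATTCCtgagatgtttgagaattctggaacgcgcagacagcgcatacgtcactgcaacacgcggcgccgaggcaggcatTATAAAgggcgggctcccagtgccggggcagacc
Ccn2: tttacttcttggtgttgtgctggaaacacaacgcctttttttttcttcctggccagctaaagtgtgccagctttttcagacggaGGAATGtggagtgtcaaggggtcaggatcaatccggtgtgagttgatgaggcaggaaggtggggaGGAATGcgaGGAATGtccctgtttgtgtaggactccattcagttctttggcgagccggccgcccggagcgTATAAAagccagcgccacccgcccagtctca

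RefSeq's promoter table held 7 of the 10 genes, all except Thbs2, Lox and Loxl2. The Ccn2 window held 3 copies of GGAATG on its own strand, with first bases at -166, -101 and -92, whereas the Ccn1 window held 1 copy on the opposite strand at -113. At least 1 copy on either strand was found in 12.1% of the 33469 rat promoter windows of this length. In 0.0807% there were 3 or more, a cutoff equal to the Ccn2 count, so this share is no test of it. TATAAA stood at -34 in Ccn1 and at -31 in Ccn2, and also in Postn (-44), Tnc (-208) and Spp1 (-204), so that 5 of the 7 windows held it, against 12.9% of all windows. Both figures count matches at any position in the window, and those of Tnc and Spp1 lay far from the start. In the other matched genes GGAATG occurred once each in Sparc and Loxl1 and not in Postn, Tnc or Spp1. Of 3 further motifs searched on both strands, the AP-1 motif TGANTCA (6.34% of all windows) and the CArG box (1.50%) were in none of the 7 windows, and CAGACA, a SMAD-type motif (17.2%), was in those of Tnc, Sparc, Ccn1 and Loxl1. These matches describe letters in the window and were not tested for binding.

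Of the genes that fell at 6 h, Spp1 had the largest change. It measured 8.81, 8.77 and 8.76 on the JQ1 arrays, against 9.36 and 9.31 on the DMSO arrays, a change of -0.56 ± 0.13 (limma adjusted p = 0.0025). Tnc measured 10.37, 10.30 and 10.37 with JQ1, against 10.60 and 10.78 with DMSO (-0.34 ± 0.073, limma adjusted p = 0.00144). Both genes separated the groups without overlap. Postn measured 12.97, 12.94 and 12.94 with JQ1, against 13.30 and 13.19 with DMSO (-0.30 ± 0.040, limma adjusted p = 3.4e-05). Loxl1 measured 10.58, 10.59 and 10.57 with JQ1, against 10.96 and 10.99 with DMSO (limma adjusted p = 2.2e-05). Its level was 1.31-fold lower, the fold it also had at 48 h.

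Lox showed no fall at this time. Its levels were 11.71, 11.79 and 11.76 on the JQ1 arrays at 6 h, against 11.49 and 11.72 on the DMSO arrays, the higher of which lay just above the lowest JQ1 array, so the groups overlapped. The change of 0.15 ± 0.072 did not pass (limma adjusted p = 0.0973), but it passed as a rise with centred arrays (0.25, limma adjusted p = 0.00425) and without DMSO replicate 2 at 6 h (0.27, limma adjusted p = 0.0123). The brighter Loxl2 probe set differed by 0.0021 ± 0.16 (limma adjusted p = 0.993), whereas the other one was higher with JQ1 by 0.23 ± 0.066 (limma adjusted p = 0.0112). The 95% confidence interval of the brighter probe set, -0.35 to 0.36, includes the value of the other.

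The JQ1 effect at 48 h minus that at 6 h was tested directly, and 8 of the 10 genes had a more negative effect at 48 h, 6 of them by at least 2-fold. Of all genes, 38.8% passed this test, 18.3% with a more negative effect at 48 h and 2.59% at least 2-fold more negative. The plot of JQ1 effects at both times shows this difference for each gene.

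**Figure D2:**
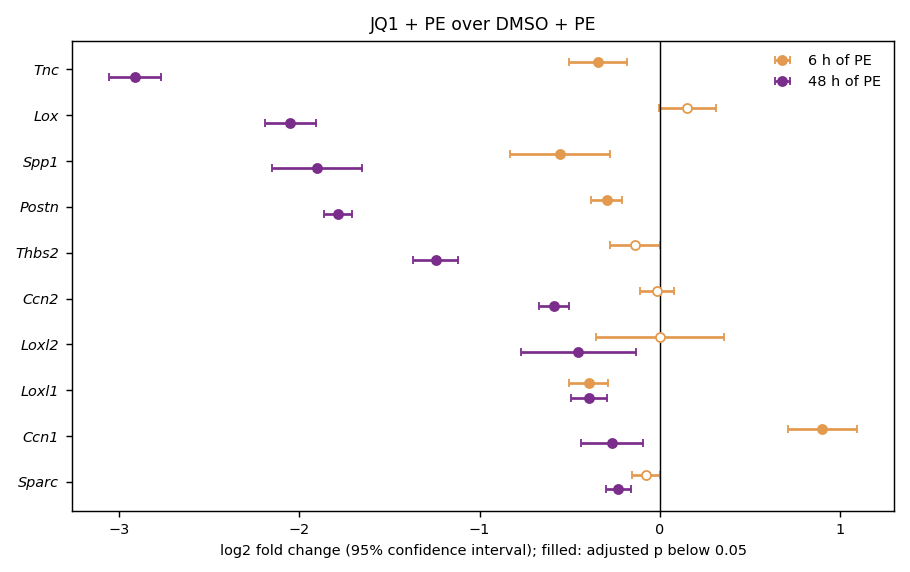
JQ1 minus DMSO log2 change (log2 units) of each of the 10 genes after 6 h and 48 h of PE; points are limma estimates and bars are 95% confidence intervals. Tnc, Lox, Spp1, Postn and Thbs2 move far below 0 at 48 h, Ccn1 is above 0 at 6 h and below it at 48 h, and Loxl1 has nearly the same value at both times.

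Tnc had the largest difference between the times, -2.57 ± 0.098 (limma adjusted p = 3.6e-09), the 11th most negative of all genes. Lox followed with -2.20 ± 0.097 (limma adjusted p = 7.0e-09), the 27th most negative. Postn (-1.49 ± 0.053), Spp1 (-1.34 ± 0.17) and Thbs2 (-1.11 ± 0.085) passed in the same direction. Ccn1 differed by -1.17 ± 0.12 (limma adjusted p = 7.9e-06), with a rise at 6 h and a fall at 48 h. Ccn2 differed by -0.57 ± 0.058 and Sparc by -0.15 ± 0.047 (limma adjusted p = 0.0204 for Sparc). The Sparc call was lost with centred arrays (-0.14, limma adjusted p = 0.0639) and without DMSO replicate 1 at 6 h (limma adjusted p = 0.0507). Loxl1 was the exception in size, with a difference of 0.0015 and a 95% confidence interval of -0.15 to 0.15. Loxl2 differed by -0.45 ± 0.22 and did not pass (limma adjusted p = 0.126), although its other probe set did (-0.66 ± 0.089, limma adjusted p = 9.1e-05).

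With PE and vehicle, changes past the threshold among the 10 genes were at most 1.53-fold. At 6 h Ccn1 and Ccn2 rose and Postn fell, and at 48 h Ccn1 and Ccn2 rose and Postn, Tnc and Lox fell. These 3 of 10 and 5 of 10 lie near the shares over all genes, of which 37.2% passed at 6 h (18.3% higher and 18.9% lower) and 44.1% at 48 h (21.4% higher and 22.6% lower). The median change of the 10 genes was -0.04 at 6 h and -0.05 at 48 h, against 0.013 and 0.006 over all genes. Both comparisons share the 3 unstimulated arrays.

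Ccn1 had the largest PE response of the 10. It measured 10.23, 10.10 and 9.97 on the unstimulated arrays, below the 10.85 and 10.57 at 6 h and the 10.67, 10.68 and 10.68 at 48 h of PE. The rise was 0.61 ± 0.088 or 1.53-fold at 6 h (limma adjusted p = 0.000146) and 0.57 ± 0.079 or 1.49-fold at 48 h (limma adjusted p = 7.4e-05). Ccn2 measured 13.98, 13.93 and 13.86 on the unstimulated arrays, also below all PE arrays of either time. It rose by 0.16 ± 0.043 at 6 h (limma adjusted p = 0.0129) and by 0.24 ± 0.039 at 48 h (limma adjusted p = 0.00028). The call at 6 h was lost with only the compared groups in the fit (limma adjusted p = 0.0916) and without DMSO replicate 1 at 6 h (limma adjusted p = 0.0827).

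Tnc measured 10.55, 10.51 and 10.52 without stimulation. At 48 h of PE it was lower by 0.26 on the log2 scale (SE 0.066, limma adjusted p = 0.00641), after a difference of 0.16 at 6 h that did not pass (limma adjusted p = 0.106). It was the only one of the 10 genes to pass between 48 h and 6 h of PE, with a change of -0.42 ± 0.073 (limma adjusted p = 0.00072), where 34.6% of all genes passed, 18.4% as lower. Postn, at 13.39, 13.36 and 13.38 unstimulated, was lower by 0.18 on the log2 scale at 48 h (SE 0.035, limma adjusted p = 0.00133). At 6 h it was lower by 0.13 (limma adjusted p = 0.0252), a call lost without DMSO replicate 2 at 6 h (-0.072, limma adjusted p = 0.242), without unstimulated replicate 1 (limma adjusted p = 0.0626) or 3 (limma adjusted p = 0.0524), with centred arrays and with only the compared groups in the fit.

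Lox, at 11.81, 11.78 and 11.76 unstimulated, changed by -0.24 ± 0.065 at 48 h (limma adjusted p = 0.0100), and its less bright probe set did not pass (limma adjusted p = 0.0513). Spp1, known to be raised in hypertrophied hearts, measured 9.33, 9.51 and 9.31 unstimulated, and its PE changes of -0.05 at 6 h and 0.16 at 48 h did not pass. Sparc, Thbs2, Loxl1 and Loxl2 did not pass at either time, with changes between -0.12 and -0.0029, of which the nearest to the threshold was Loxl1 at 48 h (limma adjusted p = 0.0506). Loxl2 on unstimulated replicate 1 was 9.04, against 9.68 and 9.64 on the other 2 arrays. The plot of PE responses shows these values.

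**Figure D3:**
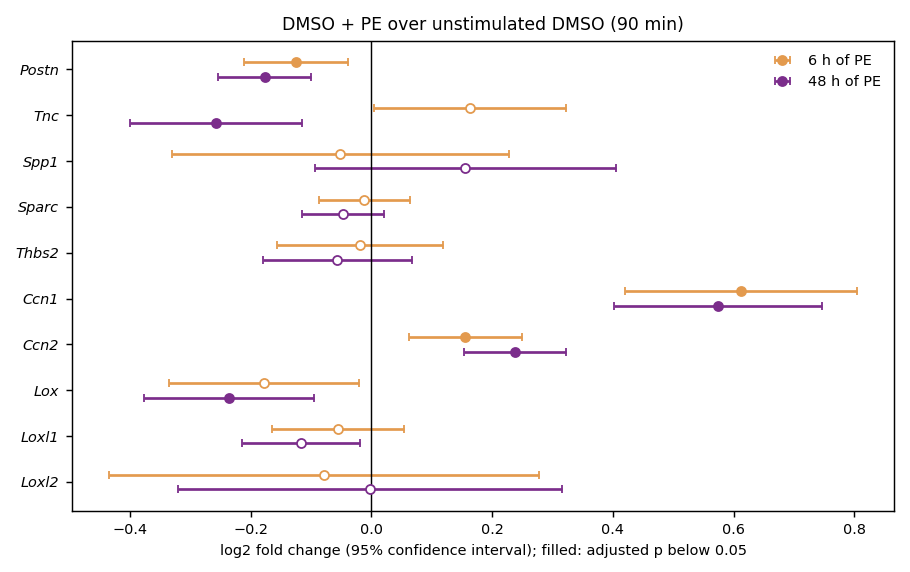
PE with DMSO minus unstimulated log2 change (log2 units) of each of the 10 genes after 6 h and 48 h; points are limma estimates and bars are 95% confidence intervals. Ccn1 and Ccn2 lie above 0 at both times, and the other genes lie within 0.26 of 0.

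Against unstimulated cells, JQ1 with PE left 9 of the 10 genes lower and 1, Ccn1, higher at 48 h, where 29.2% of all genes were lower and 31.6% higher, and 60.8% passed in all. The 5 genes at least 2-fold lower, where 5.55% of all genes were, were those that were also at least 2-fold lower against DMSO. Tnc was 8.99-fold lower, Lox 4.87-fold, Postn 3.90-fold, Spp1 3.35-fold and Thbs2 2.46-fold. Ccn1 was higher by 0.31 ± 0.079 (limma adjusted p = 0.00447) and Ccn2 lower by 0.35 on the log2 scale (limma adjusted p = 4.5e-06). The arrays of the groups did not overlap in 9 of the 10 genes, as in 65.9% of all genes, and the exception was Loxl2 (-0.46, limma adjusted p = 0.0164), whose call was lost with centred arrays (limma adjusted p = 0.0531), with only the compared groups in the fit (0.0593), and without unstimulated replicate 2 (0.0776) or 3 (0.0729) or JQ1 replicate 2 at 48 h (0.0648). At 6 h, 8 of 10 genes passed, 6 as lower and 2 as higher, where 62.6% of all genes passed, 31.7% as lower and 30.9% as higher. This count was 5 with centred arrays and 5 without unstimulated replicate 3. Ccn1 was 2.85-fold higher than unstimulated, the only one of the 10 at least 2-fold higher where 2.62% of all genes were (1.51 ± 0.079, limma adjusted p = 3.4e-09), and Lox was level with it (-0.03, limma adjusted p = 0.735).

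Related genes were read from 4 lists, and the plot of lists shows their changes beside those of the 10 genes. At 48 h, 12 of 22 other matricellular genes fell with JQ1, 2 rose and 8 did not pass, with a median change of -0.32. Of 26 genes for fibre proteins and their processing or cross-linking, 19 fell, 3 rose and 4 did not pass (median -0.42). Of 20 receptors for matricellular proteins, 14 fell, 1 rose and 5 did not pass (median -0.35). Of 23 regulators of YAP, SRF and TGF-beta signalling, 13 fell, 7 rose and 3 did not pass (median -0.17). Over all 13184 genes the median was 0.017, with 3901 lower and 3957 higher.

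**Figure D4:**
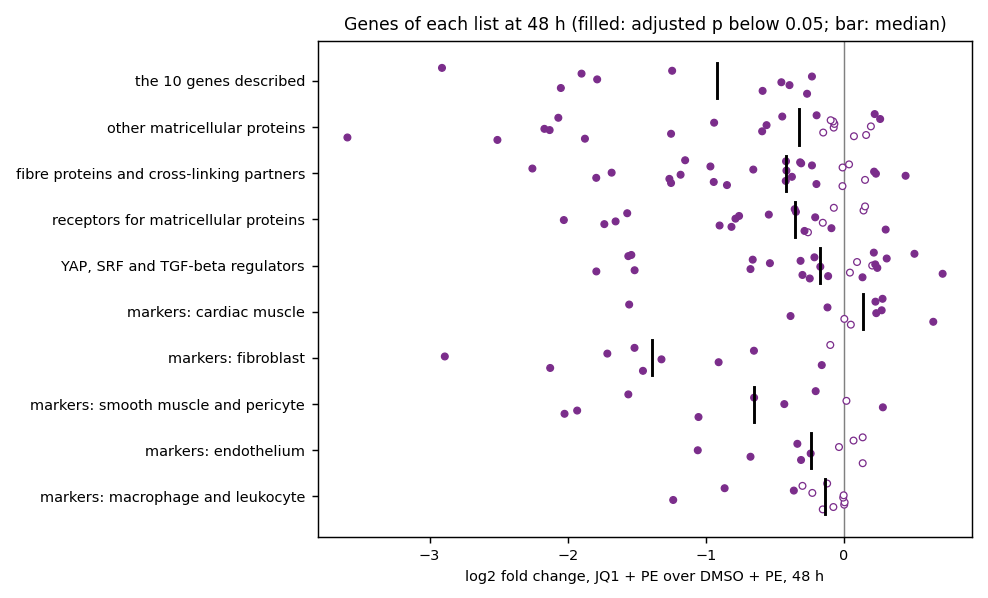
JQ1 minus DMSO log2 change (log2 units) at 48 h for the 10 genes, the 4 lists of related genes and the marker lists. Each point is a gene and each line a list's median. At 48 h the medians of the 10 genes, at -0.92, and of the fibroblast markers, at -1.39, lie lowest.

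Within the matricellular list the largest falls with JQ1 were in CCN genes at both times. Ccn5, which lacks the C-terminal domain of its relatives, fell 12.1-fold at 48 h (-3.60 ± 0.10) and 7.09-fold at 6 h (-2.83 ± 0.11). Ccn3 fell 5.69-fold at 48 h, and Ccn4 fell 3.47-fold at 6 h, a time at which Ccn1 rose. Tgfbi, an integrin-binding protein induced by TGF-beta, rose by 0.26 at 48 h. At 6 h, 9 of the 22 fell, 1 rose and 12 did not pass, where 28.8% of all genes were lower and 25.5% higher.

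Among the substrates and partners of lysyl oxidases, elastin (Eln) fell 3.47-fold at 48 h and P4ha3, a collagen prolyl hydroxylase subunit, fell 4.78-fold. Fibronectin (Fn1) rose by 0.23 and fibrillin 2 (Fbn2) by 0.45. At 6 h the lysyl oxidase Loxl3 fell 1.91-fold, and P3h1 and Plod2, which hydroxylate collagen, rose by 0.30 and 0.20. Of the 26 genes, 12 fell, 5 rose and 9 did not pass at 6 h, beside the same shares of 28.8% lower and 25.5% higher over all genes.

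The tenascin-C and osteopontin receptor subunit Itga9 fell 4.08-fold at 48 h, and the collagen receptor subunit Itga11 fell 3.33-fold, to a dim level of 5.27. Cd47, a thrombospondin receptor, rose by 0.30. At 6 h Cd44, an osteopontin receptor, rose 1.67-fold and Ddr2, a collagen receptor kinase, fell 2.13-fold, within 9 falls and 5 rises among the 20 receptors (28.8% and 25.5% over all genes). Itgb6 fell more than Ddr2 at 6 h, 4.49-fold, but was dim in both groups (4.05 with JQ1 and 6.22 with DMSO).

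Among the regulators, Ltbp1, which anchors latent TGF-beta in the matrix, fell 3.46-fold and the ligand gene Tgfb2 fell 2.95-fold at 48 h. The receptor gene Tgfbr1 rose 1.43-fold. At 6 h Tgfb3 fell 2.73-fold and Wwtr1, which encodes the YAP relative TAZ, rose 1.61-fold, within 8 falls and 5 rises among the 23, counts near the shares of 28.8% lower and 25.5% higher over all genes. Yap1, Tead1, Thbs1 and Loxl4 were not analysed here.

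Markers of other heart cells were read beside all genes, of which 29.6% were lower with JQ1 at 48 h. Of 9 smooth muscle and pericyte markers 7 fell and 1 rose at 48 h (median -0.65), and their sum was 14.23 to 14.29 with JQ1, against 14.44 to 14.47 with DMSO. This sum rests mainly on the brightest markers, Des (13.25 with JQ1 and 12.96 with DMSO) and Tagln (12.84 and 13.04). Of 12 macrophage and leukocyte markers 3 fell and 9 did not pass, which is not above the share of falls over all genes. Their sums were 9.69 to 9.81 with JQ1, against 10.26 to 10.39 with DMSO. Of 9 endothelial markers 5 fell and 4 did not pass, with sums of 8.63 to 8.66 with JQ1, against 9.10 to 9.17 with DMSO. Most of these genes were dim, 6 or 7 of the 9 endothelial and 6 to 8 of the 12 macrophage and leukocyte markers in each group, so the sums rest on few genes. Pecam1, Tie1, Vwf, Emcn, Flt1, Cldn5, Ptprc, Itgam, Cd163, C1qa and C1qb were dim in every group. The part of these cell types in the results was not tested.

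Correlations across the 14 arrays are given as descriptions over 5 groups that share their treatments. Postn, Tnc, Spp1, Sparc, Thbs2 and Lox followed a common course, with Pearson r of 0.884 to 0.990 between them, and Ccn1 stood apart from these 6 (-0.020 to 0.286). Of all pairs Tnc and Lox were the most alike (Pearson r = 0.990), Ccn1 and Loxl1 the least (r = -0.495), and Ccn1 and Ccn2 had r = 0.436. Outside the 10, Tnc and Lox had the same nearest genes, Plac9 (r = 0.997 with Tnc and 0.990 with Lox) and Ltbp2 (0.997 and 0.990). Postn was closest to Tnni3 (r = 0.999) and Ifi27 (0.997), although Tnni3 encodes a cardiac troponin and Postn is known from fibroblasts. Thbs2 was closest to Mmp23 (0.995) and Fbln5 (0.993), Sparc to Cp (0.992) and Adamts12 (0.990), and Spp1 to Prl8a9 (0.987) and C1s (0.987). Ccn1 was closest to Trmt10c (0.983) and Utp15 (0.982), Ccn2 to Calu (0.992) and Ctnna1 (0.982), and Loxl1 to Ndufs8 (0.989) and Parp14 (0.984). Loxl2 had no close neighbour, with Grpel1 at 0.804 and Gpr85 at 0.793.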

How the data were processed

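Biotin-labelled RNA of 14 samples was measured on Affymetrix rat arrays. The deposited table holds log2 values per probe set; per the submitters' processing notes limma was used, and the background correction and normalization are not given in the sources used here. Of 20223 probe sets, 18510 had 1 gene symbol, 305 several, 1402 none and 6 were controls. Symbols were updated through the gene identifier for 18461, through an accession for 1 and kept for 48. For each of 13184 genes the probe set with the highest mean over all arrays was used (3797 genes had several). A mean per group was fitted over all 14 arrays with limma 3.58.1 in R 4.3.3 (lmFit and eBayes, 9 residual degrees of freedom), and p-values were adjusted by Benjamini-Hochberg over all genes, threshold 0.05. Less bright probe sets were tested in a separate limma fit of the 18510 probe sets with 1 gene symbol, with adjustment over these. No 2 arrays held identical values. The fit was tested on simulated data.

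The members and lists were chosen with earlier results of these data known. All 10 genes are named; from each of the 4 lists of related genes, up to 2 of the largest rises and 2 of the largest falls past the threshold were open to naming for the effects of PE, of JQ1 and of late against early PE; for each of the 10 genes, the 2 most correlated other genes whose highest group mean was not dim. Alternatives were another choice or the mean of probe sets, repeated quantile normalization, centring of arrays, removal of dim genes, only the compared groups in the fit, eBayes with trend and robust options, a replicate block and leaving out each array. Dim means under the 30th percentile of the genes' means over all arrays. Labels gave replicate numbers but did not say that numbers pair arrays. Deviations from group means of same-numbered arrays correlated at -0.27 to 0.18, over 0.1 in 3 of 26 pairs, so numbers were not treated as pairs. Promoter windows came from RefSeq's table for GRCr8.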

Additional observations from a re-analysis of the deposited data

Results flagged for a closer look

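The effect of JQ1 differed between 48 h and 6 h of PE, by the test of the difference itself (limma, Benjamini-Hochberg over all genes), in 8 of the 10 genes, where 38.8% of all genes passed. The effect at 48 h minus that at 6 h was -2.57 for Tnc, -2.20 for Lox, -1.49 for Postn, -1.34 for Spp1, -1.17 for Ccn1, -1.11 for Thbs2, -0.57 for Ccn2 and -0.15 for Sparc. Ccn1 is the only one of these whose effect passed the test in opposite directions at the 2 times, 0.90 at 6 h and -0.27 at 48 h. Its fall at 48 h did not pass with centred arrays (-0.15, limma adjusted p = 0.127). Groups of 2 or 3 arrays are too small for a search for single outlying arrays.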

How the results depend on the processing

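Of 1164 values of the 10 genes recomputed under alternatives, 1060 kept their direction and side of the threshold, 35 lost and 25 gained a call and 44 changed sign, 2 of these past the threshold. The number of genes called moved by more than 1.5 times in these cases. At 6 h of PE it was 5 with trend and robust options and 1 with only the compared groups in the fit (3 in the main fit). Under both it was 2 for late against early PE (1 in the main fit). For JQ1 with PE at 6 h against unstimulated it was 5 with centred arrays and without unstimulated replicate 3 (8 in the main fit). Smaller shifts occurred under other alternatives. Leaving out 1 array at a time gave 2 to 3 calls for PE at 6 h, 5 to 6 for PE at 48 h, 1 in each case for late against early PE, 5 to 6 for JQ1 at 6 h, 9 to 10 for JQ1 at 48 h, 7 to 8 for the difference between times, 5 to 7 for JQ1 with PE at 6 h and 9 to 10 for JQ1 with PE at 48 h against unstimulated. Counts over all genes stayed within 1.5 times. Centring moved the share of calls that were higher to 65.2% for JQ1 at 48 h (50.4% in the main fit) and 61.9% for JQ1 at 6 h (47.0%). For JQ1 with PE against unstimulated it moved to 61.7% (49.3%) at 6 h and 66.7% (52.0%) at 48 h. Causes were not tested.

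Values that changed sign were mostly close to 0. With centred arrays they were Ccn2 (0.083) and Sparc (0.022) for JQ1 at 6 h, and Lox (0.066), Loxl2 (0.017) and Sparc (0.0042) for JQ1 with PE at 6 h against unstimulated. With repeated quantile normalization they were Loxl1 for the difference between times (-0.027) and Loxl2 for PE at 48 h (0.020). The other probe set of Loxl2 gave 0.37 (limma adjusted p = 0.00014) for JQ1 with PE at 6 h against unstimulated, 0.14 for PE at 6 h and -0.25 (limma adjusted p = 0.0132) for late against early PE, and the mean of its probe sets gave 0.14, 0.029 and -0.086. That of Sparc gave 0.045 for PE at 48 h and 0.12 for late against early PE, and the mean gave 0.044 there. With the replicate block Loxl1 was -0.0038 for the difference between times and Loxl2 -0.017 for JQ1 at 6 h, and the block changed no call.

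Without 1 array, values that crossed 0 ranged as follows. For PE at 6 h Spp1 was -0.087 to 0.012, Sparc -0.020 to 0.00092, Thbs2 -0.091 to 0.053 and Loxl2 -0.29 to 0.036. Loxl2 was -0.21 to 0.11 for PE at 48 h, -0.050 to 0.047 for JQ1 at 6 h and -0.29 to 0.038 for JQ1 with PE at 6 h against unstimulated. For late against early PE Postn was -0.10 to 0.0014, Thbs2 -0.11 to 0.034, Ccn1 -0.18 to 0.10, Lox -0.17 to 0.058 and Loxl2 -0.0016 to 0.14. Loxl1 was -0.021 to 0.033 for the difference between times.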

Other observations

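PE also moved genes of the lists related to the 10. At 6 h of PE with vehicle, Tgm2, a transglutaminase that cross-links matrix proteins by a chemistry other than that of lysyl oxidases, rose by 1.50 ± 0.053 on the log2 scale, and the integrin subunit genes Itga9 and Itgb3 rose by 1.21 and 1.14. The ligand genes Tgfb2 and Tgfb3 rose by 0.93 and 0.72, and Cd36, a thrombospondin and fatty acid receptor, fell by 0.60. Of 20 receptors 9 rose, 2 fell and 9 did not pass, and of 23 regulators 9 rose, 3 fell and 11 did not pass. Of 22 other matricellular genes 0 rose, 1 fell and 21 did not pass, and of 26 fibre and cross-linking genes 5 rose, 4 fell and 17 did not pass, where 18.3% of all genes rose and 18.9% fell.

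At 48 h of PE Tgm2 (1.17), Itga9 (0.95), Cd44 (0.79) and Tgfb2 (0.76) were above unstimulated cells. The SPARC relative Smoc2 fell 3.80-fold against unstimulated cells at 48 h and 3.22-fold between 48 h and 6 h of PE. Col1a1, a main substrate of lysyl oxidases, fell by 0.41. The regulator gene Srf was lower by 0.55 at 48 h than at 6 h of PE, and Sdc4 by 0.54. At 48 h of PE against unstimulated cells 9 receptors rose and 4 fell, 7 regulators rose and 5 fell, 5 matricellular genes rose and 7 fell, and 4 fibre and cross-linking genes rose and 11 fell, where 21.4% of all genes rose and 22.6% fell.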
